A study of Mus musculus with 4 samples.

Results

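Secreted and membrane-bound inflammatory cytokines outside the interleukin-1 family were followed through immune cells of healing skin wounds. The set was chosen by gene symbol and held 8 of the 31053 genes in the deposited matrices, namely Tnf, Osm, Csf1, Csf3, Il6, Il10, Tnfsf14 and Tnfsf9, each matched by 1 row. The study made 3 mm excisional wounds on the back skin of 8-week-old male mice labelled C57BL6/J. The mice were either wild type (Angptl4+/+) or constitutive Angptl4 knockouts (Angptl4-/-), and no other treatment or allele is named for these libraries. The paper lists the wild-type mice from Invivos and the knockouts from the Mutant Mouse Regional Resource Center. A genotype difference therefore cannot be told apart from a difference in mouse source. On day 1 or day 5 after wounding (dpw, days post-wounding), live CD45+ leukocytes were sorted from the wounds and sequenced as single cells from the 3' ends of their transcripts. There was 1 library for each genotype and day, 4 in all, and how many mice each one pooled is not given in the sources used here. A difference between genotypes or days therefore cannot be told apart from a difference between single libraries, no p-value is given, and the 95% intervals cover counting error only.

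Cytokines of this set carry signals between leukocytes and the tissue around them. Tnf (tumour necrosis factor) is a membrane-bound and shed trimer that activates NF-kB through its receptors Tnfrsf1a and Tnfrsf1b. Osm (oncostatin M) and Il6 belong to a family that signals through the shared receptor chain Il6st. Csf1 supports the survival of monocytes and macrophages through Csf1r, and Csf3 drives the production and release of neutrophils through Csf3r. Il10 restrains inflammatory gene expression in macrophages. Tnfsf14 (LIGHT) and Tnfsf9 (4-1BB ligand) are members of the tumour necrosis factor superfamily that bind Ltbr and Tnfrsf14, and Tnfrsf9, respectively. In wounds, neutrophils arrive first and mononuclear phagocytes follow, so that the same cytokine can come from different cells as healing proceeds.

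In the GENCODE annotation of GRCm38, the build of the matrices, Tnf lies on chromosome 17 from 35199381 to 35202007 on the minus strand, 1.418 Mb from Angptl4 itself, which spans 33773750 to 33781830. Tnfsf14 (57189492 to 57194177) and Tnfsf9 (57105325 to 57107757) lie on the same chromosome, 23.408 and 23.323 Mb from Angptl4. Osm is on chromosome 11 from 4236420 to 4241026 and Csf3 on the same chromosome from 98701263 to 98703629. Csf1 is on chromosome 3 from 107741048 to 107760469, Il6 on chromosome 5 from 30013114 to 30019981 and Il10 on chromosome 1 from 131019845 to 131024974.

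RefSeq start-site sequence of the same build (GRCm38.p6) was at hand for 4 of the 8 genes, Tnf, Csf1, Il6 and Tnfsf14, and not for Osm, Csf3, Il10 and Tnfsf9. The 250 bases before the start are printed for Tnf and Csf1, which were detected in the same neutrophil-like cells, and for Il6, which those cells lacked. Capitals mark matches on either strand to an NF-kB pattern (GGGNNNNNCC), an AP-1 pattern (TGANTCA) and the TATA box (TATAAA).
Tnf, chr17:35202008-35202257, minus strand: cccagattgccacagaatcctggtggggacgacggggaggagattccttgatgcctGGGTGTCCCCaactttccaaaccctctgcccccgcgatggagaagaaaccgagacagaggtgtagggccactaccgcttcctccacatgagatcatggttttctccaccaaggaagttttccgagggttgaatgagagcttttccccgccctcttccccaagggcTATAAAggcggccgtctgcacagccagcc
Csf1, chr3:107760470-107760719, minus strand: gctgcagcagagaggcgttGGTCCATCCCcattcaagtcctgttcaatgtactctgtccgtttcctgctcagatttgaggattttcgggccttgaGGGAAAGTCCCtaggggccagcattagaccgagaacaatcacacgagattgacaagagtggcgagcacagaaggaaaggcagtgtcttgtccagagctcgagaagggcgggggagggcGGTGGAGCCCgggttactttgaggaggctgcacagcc
Il6, chr5:30012864-30013113, plus strand: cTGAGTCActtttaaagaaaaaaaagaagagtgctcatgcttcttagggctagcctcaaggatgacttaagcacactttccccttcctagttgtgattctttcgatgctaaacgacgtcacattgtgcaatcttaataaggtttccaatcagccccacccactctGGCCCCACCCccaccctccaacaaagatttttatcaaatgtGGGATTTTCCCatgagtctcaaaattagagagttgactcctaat

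The Tnf sequence held a TATAAA beginning 29 bases before the start and 1 NF-kB pattern beginning 194 bases before it. In Il6, overlapping NF-kB matches, 1 on each strand, began 44 and 43 bases before the start, another began at 85, and the AP-1 pattern began at 249. Csf1 held 4 NF-kB matches, of which 2 overlapped, and neither of the other patterns. The window of Tnfsf14, not printed, held 4 NF-kB matches and 1 AP-1 match. The loose NF-kB pattern is common, present in 45.8% of 32851 such windows, against 6.75% for the AP-1 pattern and 12.4% for TATAAA, so these matches are a description of the letters and not of binding.

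The libraries held 5346 and 4945 cells from Angptl4+/+ wounds at 1 and 5 dpw and 4798 and 4738 cells from Angptl4-/- wounds, with 26898397 to 32815888 unique molecular identifiers (UMIs) each. Angptl4 had 47 and 78 UMIs in the Angptl4+/+ libraries and 0 in both Angptl4-/- libraries. Cells were grouped into 13 clusters from which the 8 cytokines and their companion genes had been left out, and the clusters were named from marker genes. Neutrophil-like cells numbered 3887 and 2694 at 1 and 5 dpw in Angptl4+/+ wounds, and 3698 and 3498 in Angptl4-/- wounds. Macrophage-like cells numbered 1154, 1549, 847 and 647 in the same order, and the other classes (monocyte-, dendritic cell-, NK cell/T cell- and B cell-like) were smaller. The 10 neutrophil markers, which also served to name the classes, made up 10.6 to 21.6% of UMIs in neutrophil-like cells and 0.179 to 1.20% in macrophage-like cells. A pair of libraries shared 4 to 15 cell barcodes.

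Neutrophil-like cells were the main source of 5 of the 8 cytokines. They held 69.7 to 89.5% of the Tnf UMIs of a library, 72.0 to 84.9% of the Osm UMIs, 92.0 to 96.4% of the Csf1 UMIs, 93.6 to 97.8% of the Csf3 UMIs and 75.2 to 88.8% of the Tnfsf14 UMIs. They were 72.7 and 54.5% of the cells of the Angptl4+/+ libraries at 1 and 5 dpw, and 77.1 and 73.8% of the Angptl4-/- ones. Shares nearest to that of the cells were Tnfsf14 in Angptl4-/- (77.4%) and Osm in Angptl4+/+ (74.8%) at 1 dpw. Levels are given as UMIs per 1000000 UMIs of the class. The Tnf level in neutrophil-like cells was 503 and 235 at 1 and 5 dpw in Angptl4+/+ wounds, and 411 and 190 in Angptl4-/- wounds. Both 1 dpw libraries were above both 5 dpw libraries, and at 1 dpw 52.4 and 49.3% of neutrophil-like cells of the 2 genotypes carried a Tnf UMI.

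Osm was found in 61.3 to 70.7% of neutrophil-like cells across libraries. Its level was 591 and 887 at 1 and 5 dpw in Angptl4+/+ wounds, and 615 and 1014 in Angptl4-/- wounds. Csf1, the growth factor of macrophages, was at 555 and 827 in the Angptl4+/+ libraries and at 519 and 756 in the Angptl4-/- libraries. For both genes the 5 dpw libraries were the higher ones. Csf3, the neutrophil growth factor, came from few cells, with a UMI in 2.52 to 6.71% of neutrophil-like cells. Its level was 67.3 and 45.8 in Angptl4+/+ wounds and 105 and 39.8 in Angptl4-/- wounds at 1 and 5 dpw. The 10 cells with the most Csf3 UMIs held 32.4 to 58.9% of a library's total, so its level rested on few cells. Tnfsf14 was at 25.2 and 60.5 in Angptl4+/+ and at 21.0 and 62.7 in Angptl4-/- neutrophil-like cells, higher at 5 dpw in both genotypes. In Angptl4-/- at 1 dpw its level was higher in monocyte-like (25.0) and NK cell/T cell-like cells (38.1), on 46 and 11 UMIs.

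**Figure D1:**
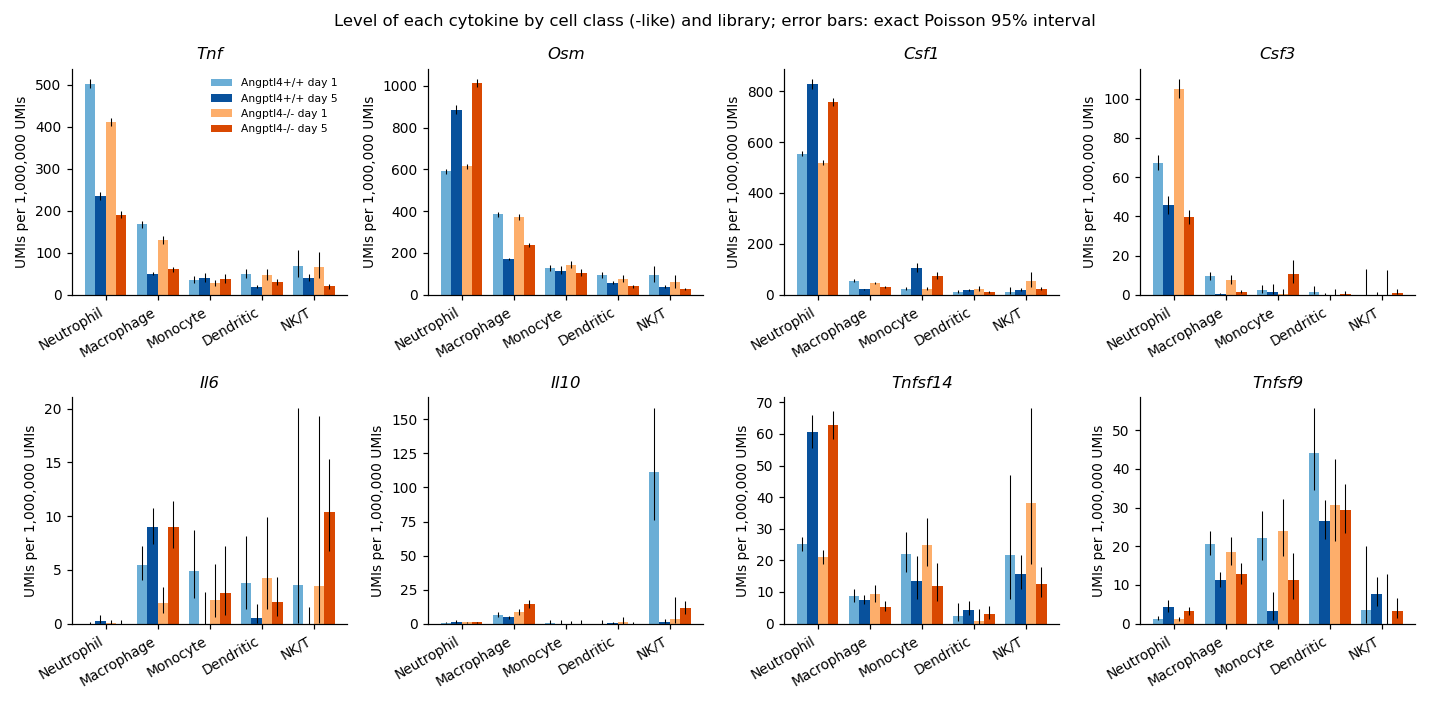
Level of each cytokine (UMIs per 1000000 UMIs of the class, linear axis from 0) in 5 cell classes, 1 bar per library, with the exact Poisson 95% interval. Tnf, Osm, Csf1, Csf3 and Tnfsf14 stand highest in neutrophil-like cells or, for Tnfsf14 at 1 dpw, beside monocyte-like and NK cell/T cell-like cells, and Tnfsf9 stands highest in dendritic cell-like cells.

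Tnfsf9, which co-stimulates T cells, had the opposite distribution. In dendritic cell-like cells its level was 44.2 and 26.6 at 1 and 5 dpw in Angptl4+/+ wounds, and 30.7 and 29.3 in Angptl4-/- wounds, against 1.20 to 4.40 in neutrophil-like cells. Macrophage-like cells were at 20.7, 11.3, 18.6 and 12.8 in the same order of libraries. Dendritic cell-like intervals overlapped among the 4 libraries except that Angptl4+/+ at 1 dpw (34.5 to 55.7) lay above Angptl4+/+ at 5 dpw (21.8 to 32.1). Monocyte-like cells resembled macrophage-like cells at 1 dpw, with 22.1 in Angptl4+/+ and 23.9 in Angptl4-/-, and were lower at 5 dpw, with 3.15 and 11.3. The 5 dpw monocyte-like values rested on only 4 and 16 Tnfsf9 UMIs.

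Il6 and Il10 were scarce, with 22 to 258 and 65 to 146 UMIs per library. Neutrophil-like cells had 0, 2, 1 and 0 Il6 UMIs in Angptl4+/+ 1 and 5 dpw and Angptl4-/- 1 and 5 dpw. Taking 3 UMIs per library as the limit that a count of 0 allows, the Il6 level in these cells was at most 0.153 in the 1 dpw Angptl4+/+ library and 0.245 in the 5 dpw Angptl4-/- library. Macrophage-like cells held 49, 117, 11 and 69 Il6 UMIs and monocyte-like cells 11, 0, 4 and 4. A part of the 5 dpw Il6 came from a handful of other cells. In the Angptl4+/+ library at 5 dpw, 10 cells with basophil markers held 137 of the 258 Il6 UMIs (53.1%), and a single one of them held 78. In the Angptl4-/- library at 5 dpw, 3 such cells held 35 of the 139 Il6 UMIs (25.2%), with 32 in 1 cell. A further 25 (18.0%) lay in 2 NK cell/T cell-like cells, with 20 in 1 of them. Neither 1 dpw library contained a cell that met the cut for basophil markers, at least 10 marker UMIs with Gata2 detected. Those cells were kept out of all classes, and the 10 Angptl4+/+ cells also carried 284 Osm UMIs and 103 Csf1 UMIs. Some basophil marker UMIs remained in the classes. Their summed level was 0.172 to 8.47 in macrophage-like cells across libraries, and at most 0.984 in dendritic cell-like cells, the next highest class. Over all libraries, 6 cells had 4 to 9 basophil marker UMIs and 1 had at least 10 but no Gata2. The part of such cells in the macrophage-like Il6 UMIs was not tested.

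Il10, the regulatory cytokine of the set, was mostly a macrophage-like transcript, with 59, 60, 48 and 109 UMIs in Angptl4+/+ 1 and 5 dpw and Angptl4-/- 1 and 5 dpw, or 56.2 to 80.0% of each library's Il10. Single lymphoid cells weighed heavily in 2 libraries. In Angptl4+/+ wounds at 1 dpw, all 31 Il10 UMIs of NK cell/T cell-like cells lay in 1 of 36 cells. In Angptl4-/- wounds at 5 dpw, 22 of the 27 Il10 UMIs of that class lay in 1 cell. B cell-like cells held 0 Il10 UMIs, but with 2 to 27 cells per library this class gives little depth.

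**Figure D2:**
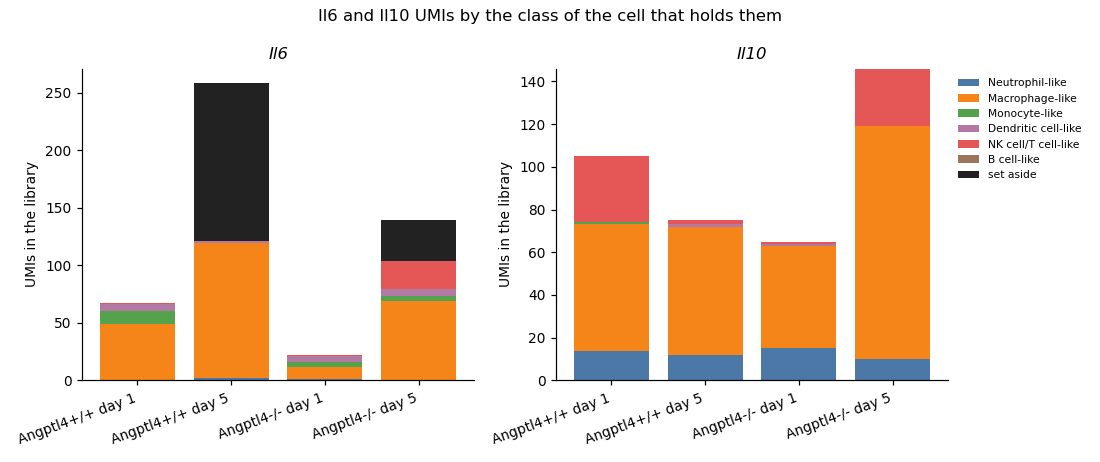
UMIs of Il6 (left) and Il10 (right) in each library, stacked by the class of the cell that holds them, with the cells kept out of all classes in black. At 5 dpw the black share of Il6 is 53.1% in the Angptl4+/+ and 25.2% in the Angptl4-/- library, and NK cell/T cell-like Il10 comes from 1 cell each in Angptl4+/+ at 1 dpw (31 UMIs) and, for 22 of 27 UMIs, in Angptl4-/- at 5 dpw.

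Free RNA from neutrophils can reach any droplet, so each neutrophil cytokine was set beside the 10 neutrophil markers in the same class. In macrophage-like cells the markers' median was 6.37 and 5.09% of their neutrophil-like level at 1 dpw in Angptl4+/+ and Angptl4-/- wounds, and 1.94 and 1.84% at 5 dpw. The highest single marker reached 11.5, 3.52, 11.1 and 3.68% in Angptl4+/+ 1 and 5 dpw and Angptl4-/- 1 and 5 dpw. Tnf in macrophage-like cells stood at 33.4, 21.4, 31.6 and 31.8% of its neutrophil-like level and Osm at 65.1, 19.3, 60.4 and 23.4%, above every marker in each library. Tnfsf14 was also above them, at 34.4, 12.4, 44.4 and 8.51%. Csf1, at 9.85, 2.53, 8.80 and 3.93%, and Csf3, at 13.9, 1.17, 7.21 and 3.28%, lay within or below the range of the markers except for Csf3 in Angptl4+/+ at 1 dpw and Csf1 in Angptl4-/- at 5 dpw, which were above it. The 10 macrophage-like cells with the most Csf1 UMIs held 43.2, 34.4, 52.8 and 61.0% of that class's Csf1 UMIs, in the same order of libraries. The part of free RNA in the Csf1 and Csf3 UMIs was not tested, and no expression of Csf1 or Csf3 by macrophage-like cells is read from them. In monocyte-like cells Csf1 was at 4.14, 12.7, 4.51 and 9.90% of its neutrophil-like level, also within or below the range of the markers in each library. The markers' median there was 5.98, 9.52, 4.68 and 6.77%. The monocyte-like Csf1 level was 22.9 and 105 at 1 and 5 dpw in Angptl4+/+ and 23.4 and 74.9 in Angptl4-/- wounds. Its log2 day ratios were 2.19 (1.72 to 2.68) and 1.68 (1.15 to 2.23). The top 10 cells held 80.8, 71.4, 88.4 and 89.6% of these UMIs, and the part of free RNA was not tested.

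From 1 to 5 dpw the members separated within neutrophil-like cells. In this comparison the median gene was itself higher at 5 dpw, by 0.65 on the log2 scale in Angptl4+/+ and 0.68 in Angptl4-/- wounds, and the 10 neutrophil markers took 19.9 and 10.6% of UMIs at 1 and 5 dpw in Angptl4+/+ and 21.6 and 10.7% in Angptl4-/- cells. The part of these shifts in the members' ratios was not tested. Of the 5 members with at least 100 UMIs, 2 were past 2-fold in Angptl4+/+ wounds, Tnf lower and Tnfsf14 higher, where 32.2% of all genes tested were past 2-fold. In Angptl4-/- wounds 3 of 5 were past 2-fold, Tnf and Csf3 lower and Tnfsf14 higher, where 34.5% of all genes were.

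The Tnf ratio of 5 to 1 dpw was -1.10 on the log2 scale (-1.17 to -1.03) in Angptl4+/+ and -1.11 in Angptl4-/- neutrophil-like cells. It was below 0 in 6 of 6 neutrophil-like clusters in each genotype, and relative to the median gene it was -1.75 and -1.79. Csf3 was also lower at 5 dpw, by a log2 ratio of -0.56 (-0.72 to -0.39) in Angptl4+/+ and -1.40 in Angptl4-/- cells. Csf3 ratios were below 0 in all 5 clusters measured for each genotype. The cluster led by F3 and Serpinb2 held 345 of the 395 Csf3 UMIs of Angptl4+/+ neutrophil-like cells at 5 dpw. Its Angptl4+/+ ratio was only -0.14, with an interval of -0.32 to 0.04 that includes 0. Among Angptl4-/- cells the same cluster had a ratio of -1.44. Tnfsf14 was higher at 5 dpw, by 1.26 (1.08 to 1.44) and 1.58 (1.40 to 1.76), and above 0 in 6 of 6 clusters in both genotypes. Relative to the median gene its ratio was 0.61 and 0.90. Osm, at 0.59 and 0.72, and Csf1, at 0.58 and 0.54, were close to the median gene. Centred on that median, the Osm ratio became -0.06 and 0.04 and the Csf1 ratio -0.07 and -0.14.

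Macrophage-like cells as a class showed lower Tnf and Osm at 5 dpw in both genotypes. Their Tnf level was 168 and 50.4 at 1 and 5 dpw in Angptl4+/+ wounds, and 130 and 60.5 in Angptl4-/- wounds. The log2 ratio of the days was -1.74 (-1.87 to -1.60) for Angptl4+/+ cells and -1.10 (-1.27 to -0.93) for Angptl4-/- cells. The Osm level was 384 and 171 in Angptl4+/+ and 372 and 237 in Angptl4-/- cells, with log2 ratios of -1.17 and -0.65. The medians of all genes were 0.15 and 0.07. The Tnf and Osm ratios were each below 0 in 2 of 3 macrophage-like clusters in both genotypes. In the small cluster led by Retnla and Lyz1 the Tnf ratio was 1.02 (-0.64 to 3.36) in Angptl4+/+ cells, on 37 and 3 UMIs at 5 and 1 dpw. In Angptl4-/- cells it was 3.83 (1.31 to 9.15), on 82 and 1 UMIs. The neutrophil markers took 1.20 and 0.179% of the UMIs of macrophage-like cells at 1 and 5 dpw in Angptl4+/+ and 1.05 and 0.188% in Angptl4-/- wounds, and their part in these ratios was not tested. Of the 7 members with at least 100 UMIs, 3 were past 2-fold in Angptl4+/+ wounds (Tnf, Osm and Csf1, all lower), beside 10.8% of all genes, and of these Csf1 lay within the range of the neutrophil markers in both libraries. In Angptl4-/- wounds 1 of 5, Tnf, was past 2-fold, beside 8.18% of all genes. The Tnfsf9 ratio was -0.88 in Angptl4+/+ and -0.54 in Angptl4-/- cells, and the latter became 0.063 after thinning to 1000 UMIs and 0.0083 with cells weighted equally.

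Il6 had a higher level at 5 dpw in macrophage-like cells of both genotypes, but not under every way of counting, and Il10 had one in Angptl4-/- cells. The Il6 level was 5.46 and 8.97 in Angptl4+/+ and 1.89 and 8.99 in Angptl4-/- cells at 1 and 5 dpw, with log2 ratios of 0.72 (0.22 to 1.23) and 2.25 (1.32 to 3.31). The ratios became -0.01 and -0.70 after thinning to 1000 UMIs per cell. Median depths were 6838, 8335, 5832 and 11513 UMIs per cell in Angptl4+/+ 1 and 5 dpw and Angptl4-/- 1 and 5 dpw. After thinning, 9, 9, 2 and 1 cells in that order kept an Il6 UMI, so both thinned ratios rest on few cells. Within the class, Il6 at 5 dpw was at 10.7 in Angptl4+/+ and 38.3 in Angptl4-/- cells of the small cluster led by Retnla, Lyz1 and Ear2, and at 14.0 and 6.94 in the cluster led by Arg1, Pdpn and Mmp12. The higher of these values lay in the Arg1 cluster for Angptl4+/+, where the intervals overlapped, and in the Retnla cluster for Angptl4-/-. Il10 was higher at 5 dpw in Angptl4-/- macrophage-like cells, 14.2 against 8.26, a log2 ratio of 0.78 (0.28 to 1.30) that became 0.082 after thinning. Its interval was 0.51 to 2.59 in the Arg1 cluster and 0.04 to 1.24 in the cluster led by Ms4a7, where the ratio was 0.63. In Angptl4+/+ cells the Il10 ratio was -0.51 (-1.06 to 0.03).

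**Figure D3:**
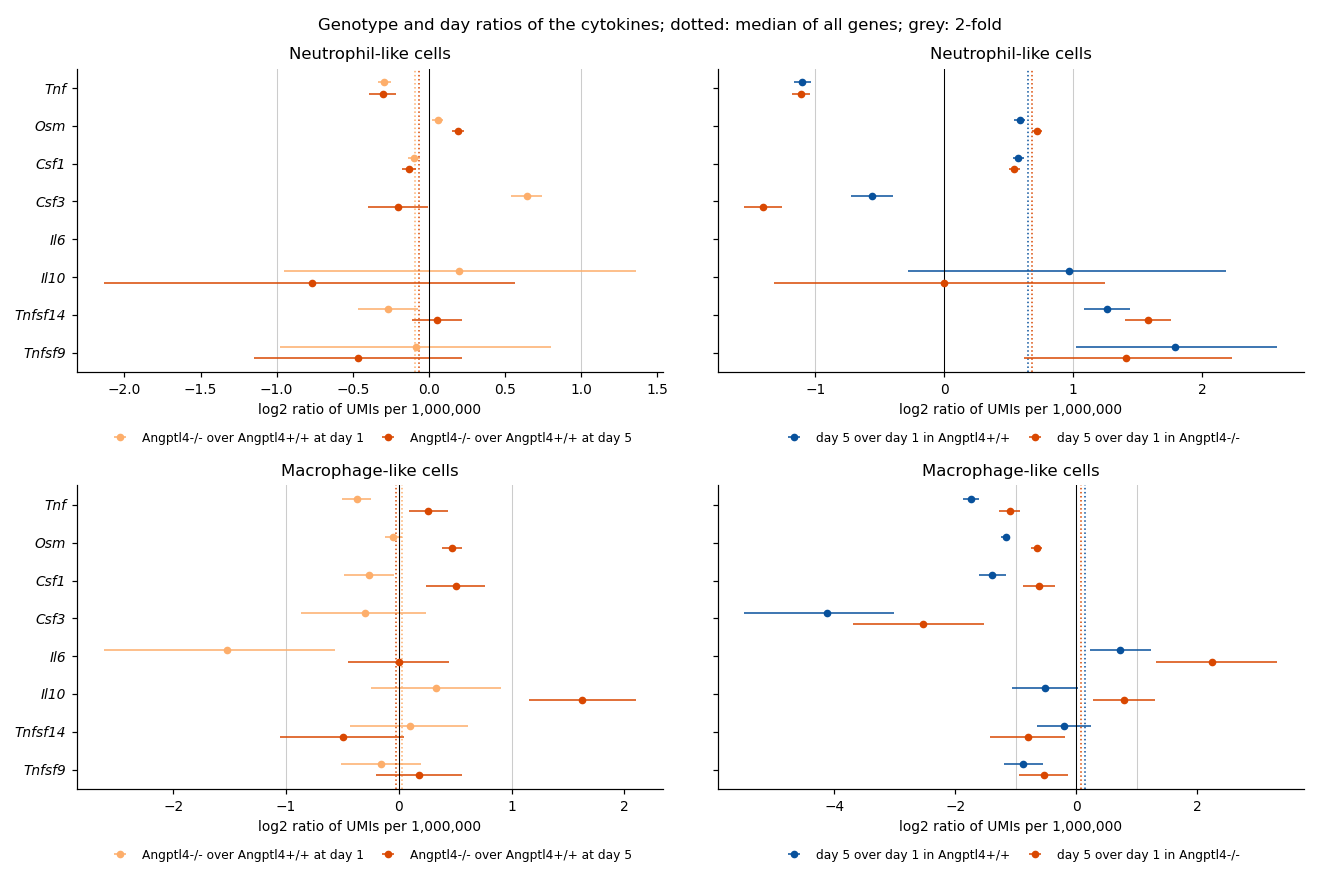
Log2 ratios of UMIs per 1000000 UMIs for the 8 cytokines between genotypes (left) and between days (right) in neutrophil-like (top) and macrophage-like (bottom) cells, with conditional binomial 95% intervals for counting error, shown where both libraries together held at least 20 UMIs. Dotted lines mark the median of all genes, which lies at 0.65 and 0.68 for the neutrophil-like day comparison, where Osm and Csf1 sit on it, and grey lines mark 2-fold.

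Between genotypes, no member was past 2-fold in neutrophil-like cells, 0 of 5 at 1 dpw beside 0.959% of all genes and 0 of 5 at 5 dpw beside 1.0% of all genes. Tnf was lower in Angptl4-/- cells on both days, with log2 ratios of -0.29 (-0.34 to -0.25) at 1 dpw and -0.30 (-0.39 to -0.22) at 5 dpw, against medians of all genes of -0.09 and -0.07. The size was 1.23-fold on each day, and the clusters did not all share it, with 5 of 6 below 0 at 1 dpw and 3 of 6 at 5 dpw. Osm was near equal at 1 dpw (0.06) and higher in Angptl4-/- cells at 5 dpw, at 0.19 (0.15 to 0.23). At 5 dpw the Osm ratio was above 0 in 6 of 6 clusters, from 0.12 to 0.56. Csf1 differed by -0.10 and -0.13, close to the median gene, and Tnfsf14 by -0.27 and 0.05.

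Of the members in neutrophil-like cells, Csf3 had the largest genotype ratio among those with at least 100 UMIs, 0.64 (0.54 to 0.74) at 1 dpw, with 1926 UMIs in Angptl4-/- and 1324 in Angptl4+/+ cells. At 5 dpw the ratio was -0.20 (-0.40 to -0.01), with 487 and 395 UMIs. The 1 dpw difference was not shared by all clusters. It was 0.95 in the cluster led by F3 and Serpinb2 and 0.88 in that led by Rps6ka2 and Syne1, -0.04 in that led by Pglyrp1 and Lrg1, and -1.35 in the cluster led by the interferon-induced genes Ifit1 and Ifit3b. At 5 dpw only 2 clusters held enough Csf3 UMIs for a ratio. It was -0.36 (-0.58 to -0.14) in the F3 cluster and 0.89 (0.36 to 1.45) in the Rps6ka2 cluster. The top 10 cells held about as large a share of Csf3 UMIs in both 1 dpw libraries, 35.0 and 32.4%.

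In macrophage-like cells the genotype ratio of Tnf was -0.37 (-0.50 to -0.25) at 1 dpw and 0.26 (0.09 to 0.44) at 5 dpw. The clusters were uneven. At 1 dpw the Tnf ratio was -0.13 (-0.28 to 0.02) in the Arg1 cluster and -0.57 (-0.82 to -0.32) in the Ms4a7 cluster. At 5 dpw it was 0.27 (0.03 to 0.51) in the Arg1 cluster and 0.14 (-0.16 to 0.44) in the Ms4a7 cluster. In the small Retnla cluster it was 1.47 (0.89 to 2.07), on 82 Angptl4-/- and 37 Angptl4+/+ UMIs. After thinning to 1000 UMIs, 11.6 and 11.9% of Angptl4+/+ and Angptl4-/- macrophage-like cells at 1 dpw carried a Tnf UMI. Osm was at -0.05 at 1 dpw and 0.47 (0.38 to 0.56) at 5 dpw, where 13.1% of Angptl4+/+ and 20.5% of Angptl4-/- macrophage-like cells had an Osm UMI after thinning, and 45.3 and 56.4% before it. At 1 dpw 0 of 7 members were past 2-fold, beside 0.715% of all genes. At 5 dpw 1 of 7, Il10, was past 2-fold, beside 1.09% of all genes. Csf1, which in these cells lay within the range of the neutrophil markers in 3 libraries and just above it in Angptl4-/- at 5 dpw, was at -0.26 and 0.50, and the 5 dpw value became 1.15 when likely doublets were left out and 0.16 when the cells with basophil markers were put back.

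At 5 dpw Il10 in macrophage-like cells was at 4.60 in the Angptl4+/+ and 14.2 in the Angptl4-/- library, a log2 ratio of 1.63 (1.16 to 2.11). At 1 dpw the levels were 6.57 and 8.26, a ratio of 0.33 (-0.25 to 0.91). The 5 dpw ratio held within both larger clusters, at 1.39 in the one led by Ms4a7, Ccl12 and Ccl8 and 2.40 in the one led by Arg1 and Pdpn. It rested on few cells, as 5.72% of Angptl4-/- and 2.78% of Angptl4+/+ macrophage-like cells had an Il10 UMI at median depths of 11513 and 8335 UMIs, and the 10 cells with the most UMIs held 66.1% of the Angptl4-/- total. After thinning the ratio was 0.66, and 0.63 and 0.60% of cells, 4 and 9 cells, had an Il10 UMI. The clusters took different shares of the class, as 34.3% of Angptl4+/+ and 45.3% of Angptl4-/- macrophage-like cells at 5 dpw were in the Ms4a7 cluster, and 59.3 and 46.1% in the Arg1 cluster. Il6 at 1 dpw was lower in Angptl4-/- macrophage-like cells, at -1.53 (-2.62 to -0.56), on 11 and 49 UMIs, and at 5 dpw the ratio was 0.00 (-0.45 to 0.44).

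Tnf lies near the targeted gene. Of 189 annotated genes within 2 Mb of Angptl4, 64 and 66 could be measured in neutrophil-like cells at 1 and 5 dpw. Their median genotype ratios were -0.09 and -0.17, beside -0.09 and -0.07 for all genes. Past 2-fold were 0 at 1 dpw and 2 at 5 dpw, H2-Q6 (-1.82) and H2-Q7 (-2.12), beside 0.959 and 1.0% of all genes. In macrophage-like cells 1 of 78 at 1 dpw, H2-Eb1 (1.04), and 1 of 88 at 5 dpw, Ltb (1.11), were past 2-fold. The shares over all genes there were 0.715 and 1.09%. The part of this linkage in the Tnf ratio was not tested.

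Within neutrophil-like cells Tnf and Csf1 were both high in the same cluster and Osm was lower there. Tnf in the cluster led by Rps6ka2 and Syne1 was at 1011, 376, 816 and 319 in Angptl4+/+ 1 and 5 dpw and Angptl4-/- 1 and 5 dpw, and in the cluster led by Pglyrp1, Lrg1 and the neutrophil surface marker Ly6g at 102, 42.6, 90.4 and 38.6. Csf1 was at 1619, 1586, 1552 and 1214 in the first and 59.8, 247, 45.8 and 267 in the second. These gaps were far wider than the counting intervals in every library. Osm had the reverse order, at 456, 597, 501 and 670 in the Rps6ka2 cluster and 632, 1040, 653 and 1177 in the Pglyrp1 cluster. Csf3 was concentrated in the cluster led by F3, Serpinb2, Ccl4 and Ccl3, genes of tissue factor, a protease inhibitor and chemokines, at 176, 160, 340 and 125, against 1.20 to 12.5 in the Pglyrp1 cluster.

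The day difference of Csf1 was uneven among clusters, with log2 ratios of -0.62 to 2.05 among Angptl4+/+ cells and -0.35 to 2.55 among Angptl4-/- cells. The Pglyrp1 cluster held the upper end in both. The Rps6ka2 cluster, which had the highest Csf1 level, was at similar levels on both days in Angptl4+/+ cells (1619 and 1586) and lower at 5 dpw in Angptl4-/- cells (1552 and 1214), a log2 ratio of -0.35 (-0.41 to -0.29). Tnfsf14 was less uneven, at 17.9 to 32.9 in the 3 largest clusters at 1 dpw and 51.0 to 75.4 at 5 dpw. In the integrated clustering, which aligns the libraries, the clusters made up similar shares of neutrophil-like cells in the 4 libraries. The Rps6ka2 cluster held 23.5 to 25.0% and the Pglyrp1 cluster 27.0 to 28.7%. The cluster led by Egr3 and Acot1 was the exception, at 2.73 and 3.00% at 1 dpw and 8.80 and 9.12% at 5 dpw in Angptl4+/+ and Angptl4-/- wounds. Without integration, some neutrophil-like clusters separated by day. In Angptl4+/+ 1 and 5 dpw and Angptl4-/- 1 and 5 dpw, one led by Prok2 held 1630, 40, 1375 and 46 cells. Another, led by Fgl2, held 90, 1247, 61 and 1565. The largest, led by Rps6ka2 and Il1a, held 1347, 805, 1295 and 1045. The shares after integration are therefore not read as unchanged cell states.

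**Figure D4:**
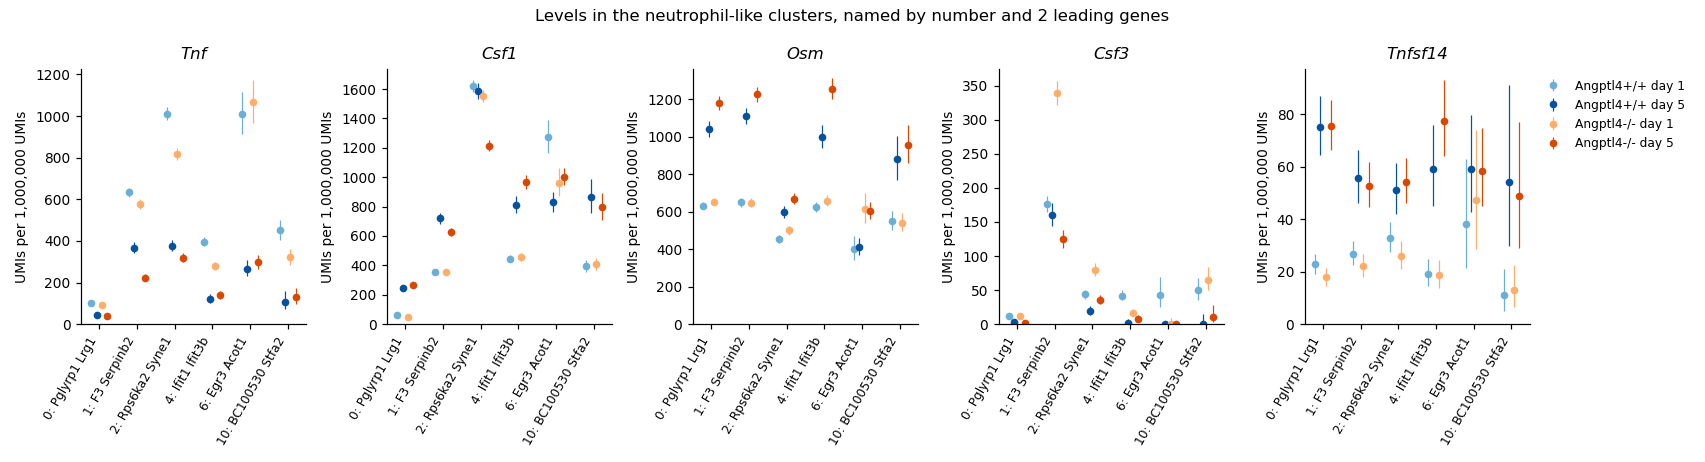
Levels of 5 cytokines (UMIs per 1000000 UMIs, linear axes from 0) in the 6 neutrophil-like clusters, each named by its number and 2 leading genes, 1 point per library with the exact Poisson 95% interval. Csf1 is highest in cluster 2 in all 4 libraries, Tnf is highest in clusters 2 and 6 at 1 dpw, Osm is lower in both than in clusters 0, 1 and 4 in all 4 libraries, and Csf3 stands out in cluster 1 at 340 in Angptl4-/- wounds at 1 dpw.

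The same pattern was described cell by cell over all neutrophil-like clusters together, with every neutrophil-like cell of at least 1000 UMIs thinned to that depth. Detection was not compared within clusters, so the shares below are not separate from the cluster differences. Csf1 was detected in 41.4% of Angptl4+/+ cells with a Tnf UMI and 20.7% of those without one at 1 dpw, and in 50.3 and 34.3% at 5 dpw. In Angptl4-/- wounds the shares were 38.5 and 21.2% at 1 dpw and 44.8 and 32.6% at 5 dpw. The counting intervals did not overlap in any of the 4 libraries. Osm was detected in a smaller share of cells with a Tnf UMI than of cells without, 31.8 against 38.4%, 34.5 against 41.9%, 34.3 against 37.9% and 39.3 against 44.7% in Angptl4+/+ 1 and 5 dpw and Angptl4-/- 1 and 5 dpw. The Osm intervals overlapped in both Angptl4-/- libraries and in neither Angptl4+/+ library. Tnf was detected in 51.9% of Angptl4+/+ cells with a Csf3 UMI at 1 dpw, against 26.7% of the others, and in 48.0 against 24.5% of Angptl4-/- cells. At 5 dpw the values were 48.7 against 12.7% in Angptl4+/+ and 23.2 against 11.6% in Angptl4-/- wounds, on 39 and 56 cells with a Csf3 UMI. Cells of 1 library are not replicates, and these shares describe the 4 libraries.

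**Figure D5:**
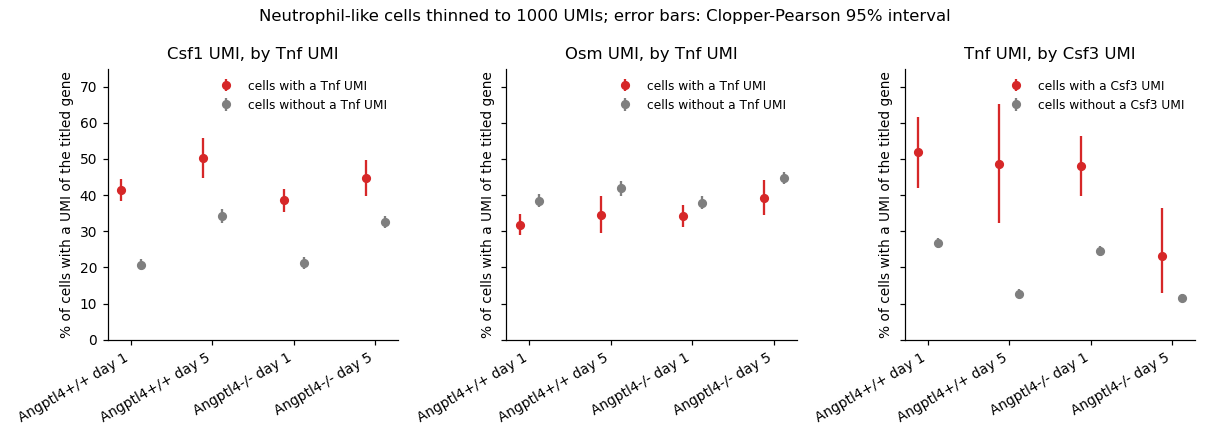
Percent of neutrophil-like cells with a UMI of Csf1 or Osm among cells with (red) and without (grey) a Tnf UMI, and with a UMI of Tnf among cells with and without a Csf3 UMI. Cells of at least 1000 UMIs were thinned to that depth. Each library has 1 pair of points with Clopper-Pearson 95% intervals. Csf1 is more frequent and Osm less frequent in cells with Tnf in all 4 libraries, with overlapping Osm intervals in the Angptl4-/- libraries and Csf1 at 41.4 against 20.7% in Angptl4+/+ wounds at 1 dpw.

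The receptors showed which classes carried transcripts to receive each cytokine. Both Tnf receptors were found in all myeloid classes, with Tnfrsf1a at 215 to 250 and Tnfrsf1b at 233 to 311 in neutrophil-like cells and at 122 to 135 and 204 to 271 in macrophage-like cells. Osmr, a receptor chain of oncostatin M, had 0 UMIs in 19 of 20 combinations of 5 classes and 4 libraries. In the other it was at 0.055 per 1000000. Il6st, the chain shared with Il6, was at 29.7 to 38.0 in macrophage-like cells and at most 0.58 in neutrophil-like cells, although Il6ra reached 66.6 to 168 there. Csf1r was at 469 to 596 in macrophage-like and 434 to 535 in monocyte-like cells, against 29.9 to 56.3 in neutrophil-like cells that carried the Csf1 transcript. Csf3r was a neutrophil-like transcript, at 608 and 1228 in Angptl4+/+ and 634 and 1205 in Angptl4-/- cells at 1 and 5 dpw.

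Il10ra was at 93.0 to 140 and Il10rb at 148 to 162 in macrophage-like cells, and Ltbr, a receptor of Tnfsf14, at 44.3 to 61.6. Tnfrsf14, the other receptor of Tnfsf14, was higher in Angptl4-/- macrophage-like cells on both days, at 10.3 against 3.34 at 1 dpw and 5.73 against 1.46 at 5 dpw, on 19 to 60 UMIs per library. Tnfrsf9, the receptor of Tnfsf9, stood apart in the Angptl4+/+ library at 1 dpw. Macrophage-like cells had a Tnfrsf9 level of 133 there and of 24.5, 19.8 and 20.6 in Angptl4+/+ at 5 dpw and Angptl4-/- at 1 and 5 dpw. Dendritic cell-like cells had 266, 60.5, 84.4 and 68.0 in that order. The macrophage-like difference was spread over cells, as 25.7% of Angptl4+/+ cells at 1 dpw had a Tnfrsf9 UMI against 4.84 to 5.29% in the other libraries. At 1 dpw the log2 genotype ratio of Tnfrsf9 was -2.74 (-3.03 to -2.47), while that of its ligand Tnfsf9 was -0.16. Chromosome positions of the receptor genes were not examined, and the part of linkage in the Tnfrsf14 and Tnfrsf9 ratios was not tested.

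Companion lists placed the members among related genes in neutrophil-like cells, the class with the most UMIs of each list. Of 13 receptors, 8 were measured with at least 100 UMIs, with a median genotype ratio of 0.02 at 1 dpw and 0.05 at 5 dpw. The highest and lowest were Ltbr (0.22) and Il10ra (-0.12) at 1 dpw and Il10ra (0.31) and Tnfrsf1b (-0.08) at 5 dpw. Of 15 feedback genes of NF-kB and cytokine signalling, 14 were measured, with medians of 0.01 and 0.04. Here Nfkb1 (0.21) and the NF-kB inhibitor Nfkbie (-0.31) were the extremes at 1 dpw, and Cish (0.92), a suppressor of cytokine signalling, and Tnfaip3 (-0.30), which ends NF-kB signalling, at 5 dpw. None of these genes was past 2-fold between genotypes in neutrophil-like cells on either day.

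Of 11 genes of cytokine mRNA decay and Tnf shedding, 10 were measured, with medians of -0.16 and -0.14. Rhbdf2 (0.12), which guides the Tnf sheddase, and Khsrp (-0.63), a decay factor, were the extremes at 1 dpw, and the sheddase Adam17 (0.09) and the decay factor Zfp36 (-0.33) at 5 dpw. Of 27 other cytokines, 9 and 6 were measured at 1 and 5 dpw, with medians of -0.16 and -0.28. Tgfb1 was the highest on both days (0.21 and 0.44), and the lowest were Lif (-0.88), of the Osm and Il6 family, and Il23a (-0.75). Between days, all 8 receptors were above 0 in neutrophil-like cells of both genotypes, with medians of 0.71 and 0.64 beside 0.65 and 0.68 for all genes, and the feedback genes stood lower, with medians of -0.05 and 0.08.

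Genes most like each member were ranked by the Pearson correlation of log2 levels over 44 cluster-by-library sums, which share libraries and cell classes, among 8723 genes. Tnf was followed by Gpr84 (0.92), a receptor of myeloid cells, Zfand3 (0.90) and Tnfaip3 (0.90). Osm was followed by the chemokine receptor Ccr1 (0.98), Cpeb2 (0.97) and the lectin Clec4d (0.96). Csf1 was followed by Fgd3, Retreg1 and Dedd2 (0.96 each), and Tnfsf14 by 2310001H17Rik, A530013C23Rik (0.93 each) and Pcf11 (0.92). Csf3 was closest to Eml1 (0.86), Chd4 (0.82) and the cytokine Il1a (0.80). For the mononuclear members, Il10 was closest to Prune2 (0.84) and the chemokines Ccl12 and Ccl8 (0.82 each), Il6 to Manea (0.81), Socs6 and Plxdc2 (0.80 each), and Tnfsf9 to Casp6 (0.91), Pvr and Tax1bp3 (0.89 each). Il6 reached 38.3 in the Retnla cluster and at most 14.0 in any other cluster. Il10 reached 19.9 in the Ms4a7 cluster. These levels are close to the 10 added before the logarithm, so the Il6 and Il10 rankings rest on few clusters above a floor.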

How the data were processed

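The authors sequenced 10x Genomics 3' libraries of sorted CD45+ cells and deposited raw UMI counts per gene and cell, which the labels credit to Cell Ranger 3.1.0 on mm10, with Seurat 3.0 also named. No unit was converted before analysis. Cells with at least 200 genes and at most 10% mitochondrial UMIs were kept (19827 of 20069 barcodes) and integrated by anchors in Seurat 5.3.0 (R 4.3.3) on 2000 variable genes, without the 8 members and their companion genes, with 30 dimensions and a resolution of 0.5. The cell filter is not taken from the study, and doublets were kept: the automatic threshold of Scrublet (scanpy 1.11.5) called 0 to 3 cells per library and so did not work, and leaving out the highest 4% of scores is an alternative. Clusters were named from marker lists as "-like" classes. Of all cells, 15 with basophil, mast cell or haemoglobin markers were kept out of the classes, a choice made after seeing the data.

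Counts were summed by class and library and divided by the UMIs of the class (Python 3.11.15, SciPy 1.17.1, NumPy 2.4.6). Levels have exact Poisson, shares Clopper-Pearson and log2 ratios conditional binomial 95% intervals. Ratios needed at least 20 UMIs over both libraries, and the share of genes past 2-fold at least 100. With 1 library per group, no test was run. The ratio and its interval were tested on simulated counts with Poisson error only. Those counts had no spread between cells, so the simulation does not cover UMIs concentrated in few cells. Named genes were the 8 members, the receptors, the highest and lowest genotype ratio of each companion list, and the 3 genes most like each member (log2 of UMIs per 1000000 + 10, sums of at least 50 cells, genes with at least 500 UMIs). Others named lead a cluster. Members and lists were chosen with earlier results of these data known. Promoter sequences come from RefSeq. Alternatives changed the scaling, cell filter, doublets, resolution, integration, depth, weights, cluster shares and set-aside cells.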

Additional observations from a re-analysis of the deposited data

Results flagged for a closer look

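Genotype ratios (log2, Angptl4-/- over Angptl4+/+) of 4 genes pointed one way at 1 dpw and the other way at 5 dpw. With 1 library per group this difference between the days was not tested. In macrophage-like cells Tnf went from -0.37 at 1 dpw to 0.26 at 5 dpw, a difference of 0.64, and Csf1 from -0.26 to 0.50, a difference of 0.77. Among macrophage-like clusters the Tnf ratio ran from -0.57 to -0.13 at 1 dpw and from 0.14 to 1.47 at 5 dpw. The Csf1 level in these cells was within or just above the range of the neutrophil markers, and the part of free RNA was not tested. In neutrophil-like cells Csf3 went from 0.64 to -0.20, a difference of -0.85. The clusters did not share this reversal, as Csf3 went from 0.95 to -0.36 in the F3 cluster but from 0.88 to 0.89 in the Rps6ka2 cluster. In NK cell/T cell-like cells Il10 went from -5.01 (-10.36 to -2.42), on 1 Angptl4-/- and 31 Angptl4+/+ UMIs, to 3.72 (1.73 to 6.84), on 27 and 2 UMIs, a difference of 8.73, and 1 cell held all 31 and another 22 of the 27.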

How the results depend on the processing

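Of 530 alternative values of 59 log2 ratios, 441 stayed within the counting interval, 80 moved beyond it with the same sign and 9 changed sign. The stricter cell filter and the lack of integration moved none of the 59, and resolution 1.0 moved 1. All 59 were ratios of a whole class, neutrophil-like or macrophage-like. Ratios within clusters were not among them, so the lack of change without integration does not extend to the cluster results.

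Centred on the median gene, the neutrophil-like day ratio became -0.063 for Osm in Angptl4+/+, and -0.074 and -0.14 for Csf1 in Angptl4+/+ and Angptl4-/-, since the median gene lay at 0.65 and 0.68. In macrophage-like cells the Il6 day ratio became -0.014 (thinned) and -0.12 (cells weighted equally) in Angptl4+/+ and -0.70 (thinned) in Angptl4-/-, the Tnfsf14 day ratio in Angptl4-/- became 0.30 (thinned), and the Tnfsf9 day ratio in Angptl4-/- became 0.063 (thinned) and 0.0083 (cells weighted equally). After thinning, 9 and 9 Angptl4+/+ and 2 and 1 Angptl4-/- macrophage-like cells kept an Il6 UMI at 1 and 5 dpw. The cause of these changes was not tested. In neutrophil-like cells the 1 dpw genotype ratio of Tnf became -0.21 centred, -0.17 thinned, -0.20 with cells weighted equally and -0.23 standardised over clusters. That of Osm became 0.15 centred and 0.015 thinned, and that of Csf1 -0.0097 centred, -0.051 thinned and -0.013 with cells weighted equally. At 5 dpw Osm became 0.26 centred and 0.15 with cells weighted equally, and Csf1 -0.063 centred and -0.18 thinned.

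The percent of genes past 2-fold grew with fewer UMIs. With at least 20 UMIs it was 3.80 and 3.82 between genotypes in neutrophil-like cells at 1 and 5 dpw, 2.87 and 3.75 in macrophage-like cells, and 12.5 between days in Angptl4-/- macrophage-like cells. With at least 500 it was 0.485 and 0.416 in neutrophil-like and 0.474 and 0.502 in macrophage-like cells between genotypes, and 18.1 and 21.1 between days in Angptl4+/+ and Angptl4-/- neutrophil-like cells. Leaving out the likeliest doublets moved 3 ratios, and putting back the set-aside cells moved 6. Both alternatives were chosen after seeing the data.

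No paired analysis was possible because each group is 1 library. Leaving out a replicate was likewise not possible. Depth limits Il6 and Il10, with 22 to 258 UMIs per library.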
